A study of Mus musculus with 36 samples.

Results

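The comparison reported here set the RNA of P-bodies sorted from mouse embryonic fibroblasts (MEFs) against the RNA of the cytoplasmic fraction of the same cells. It took 4 of the 36 libraries of the series, namely 2 P-body and 2 cytoplasm libraries of uninduced MEFs. Of the 25239 genes in the deposited count table, 16198 had at least 10 reads summed over the 4 libraries and were tested, and 9041 fell under that minimum. The study used the fibroblasts as a differentiated cell type beside naive and primed embryonic stem (ES) cells, and asked among other things whether messages with sites for let-7, miR-300 and miR-381 lie in P-bodies there too.

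P-bodies are membraneless granules in the cytoplasm. They gather RNA around the helicase DDX6, the scaffold protein LSM14A and the decapping proteins, and are known for holding messages that are not being translated, together with the machinery of microRNA silencing and 5′ to 3′ decay. Fibroblasts are known for secretion: they make collagens, fibronectin and the other components of the extracellular matrix on ribosomes at the endoplasmic reticulum.

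The MEFs expressed a GFP-tagged LSM14A from a lentiviral construct driven by the EF1a promoter, in both fractions alike. GFP-positive particles were sorted from a pellet of lysate from which nuclei had been spun out, and the presorting material was the cytoplasm sample. MEFs came from the body wall of mid-gestation embryos. Wild-type CD1 mice and mice with a doxycycline-inducible cassette of Oct4, Klf4, Sox2 and Myc in Col1a1, the M2-rtTA transactivator at Rosa26 and a Pou5f1-EGFP reporter, were both used in the study, and the labels do not state which gave these 4 libraries. For comparison, the same fractions were taken from control-knockdown MEFs on day 3 of reprogramming, from naive ES cells and from primed ES cells, with 2 libraries per fraction in each, and all carried tagged LSM14A. The study describes its sequencing replicates as biological, and the labels do not say whether they were separate cultures, so p-values measure only the spread between these libraries.

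The 2 P-body libraries held 25315524 and 25861641 reads on genes and the 2 cytoplasm libraries 31185799 and 30132600. Levels are given in counts per 1000000 reads of these totals (CPM), always in the order of replicate 1 and 2. A CPM is a share of a library, so less of one RNA and more of the others cannot be told apart. Between replicates, the log2 difference of a gene had an SD of 0.25 in P-bodies and 0.144 in cytoplasm over 9404 genes of at least 10 CPM. Summed levels of 16 fibroblast markers were 18930 and 18911 CPM in P-bodies and 55091 and 51137 CPM in cytoplasm, with none of the 16 under 1 CPM throughout. The second P-body library stood apart in lung and blood cell markers. Of 12 lung epithelial genes, 7 stayed under 1 CPM in every library, and their summed level was 7.15 and 91.4 CPM in P-bodies and 0.289 and 0.199 CPM in cytoplasm. The sum of 16 macrophage and blood cell genes was 13.7 and 48.6 CPM in P-bodies and 8.66 and 8.26 CPM in cytoplasm. Without this library 4589 genes were enriched and 5026 depleted in the comparison of all genes that follows, and the results below that rest on such genes are given with each library's value.

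Fibroblast messages for the cell's outside were low in P-bodies relative to the cytoplasm, while short housekeeping messages, several nuclear RNAs and the Id genes were high. With edgeR's quasi-likelihood test and Benjamini-Hochberg adjustment, 4310 genes (26.6%) were enriched in P-bodies and 4645 (28.7%) were depleted at an adjusted p under 0.05, or 55.3% of genes tested in either direction. Among the enriched, 1947 had a log2 fold change of at least 1, and among the depleted 2017 had one of -1 or lower. The median over all genes tested was 0.03 on the log2 scale. Scaling by upper quartiles moved it to 0.13 and turned the balance of calls, with 4788 enriched and 4115 depleted. Without cytoplasm replicate 1 the counts were 2662 enriched and 2933 depleted. Below, "enriched" and "depleted" are used only of genes that passed this test. Counts of list members are to be read beside the 26.6% enriched and 28.7% depleted among all genes. Fold changes are log2 of P-body over cytoplasm with their standard error (SE). A gene under the test's threshold is given by its values.

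**Figure D1:**
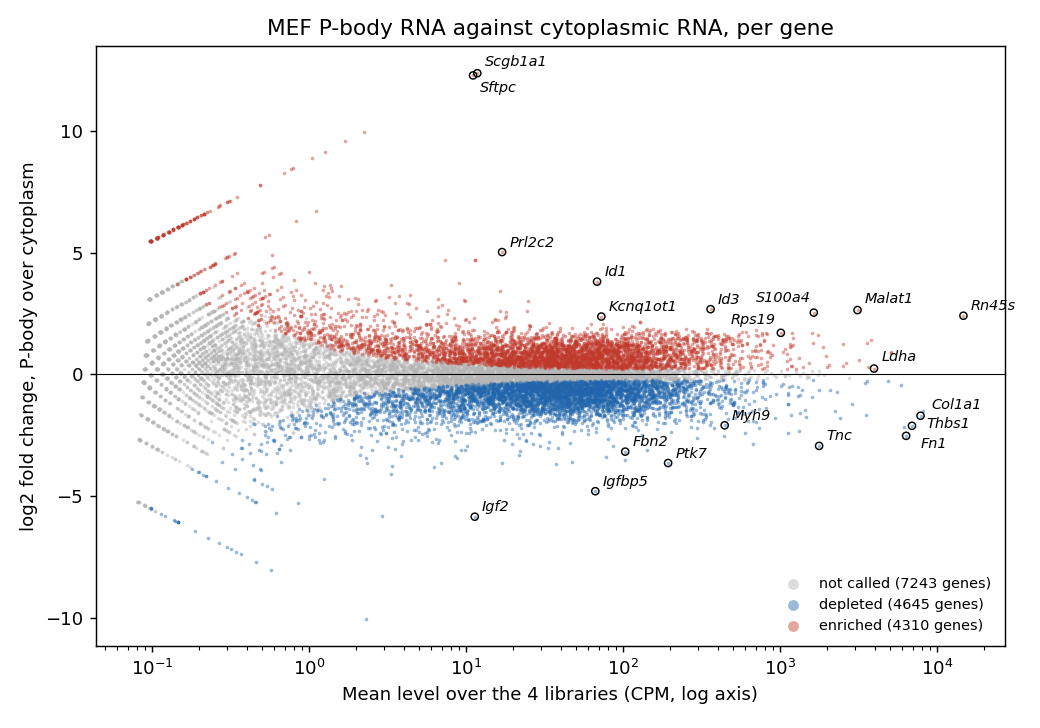
Each point is one of 16198 genes, with its mean CPM over the 4 MEF libraries on the x axis (log scale) and its log2 fold change of P-body over cytoplasm on the y axis; red points were enriched, blue points depleted and grey points not called. The circled matrix genes Col1a1, Thbs1 and Fn1 lie far right and below 0, Malat1, S100a4 and Rn45s far right and above 0, and the diagonal rays at the left edge are genes with a few reads.

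Insulin-like growth factor 2 was the most depleted gene above 10 CPM. Igf2 (chr7:142650766-142666816, GRCm38, exons overlapping those of Igf2os) encodes a fetal growth factor and reached only 0.277 and 0.503 CPM in P-bodies against 22.1 and 22.6 CPM in cytoplasm (log2 fold change -5.84 ± 0.25, adjusted p = 1.6e-06). Igfbp5, a secreted binding protein of that factor, had 4.62 and 4.76 CPM in P-bodies against 130.3 and 127 CPM in cytoplasm, which was 27.7-fold lower in P-bodies (log2 fold change -4.79 ± 0.12, adjusted p = 2.95e-07). In both genes the replicates of a fraction lay close together, and non-overlap of the fractions was a condition of their choice. The Igf2 receptor Igf2r was at 48.98 and 32.2 CPM in P-bodies and 232 and 218 CPM in cytoplasm (log2 fold change -2.49 ± 0.17, adjusted p = 6.52e-06). The imprinted noncoding neighbour of Igf2, H19, was at 7.66 and 5.49 CPM in P-bodies and 42.1 and 41.6 CPM in cytoplasm (log2 fold change -2.69 ± 0.16, adjusted p = 3.99e-06). Across the insulin-like growth factor system, 10 of 18 genes were depleted, 4 were enriched and 4 were not called, with a median of -0.88. The 4 enriched genes were the binding proteins Igfbp7 (0.86 ± 0.07), Igfbp2 (0.94 ± 0.13) and Igfbp6 (1.16 ± 0.09) and the insulin receptor Insr (0.48 ± 0.14). They were named after their values were seen, and Insr was not called without cytoplasm replicate 2 (adjusted p = 0.184).

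The other leading depleted genes encode proteins of the cell surface, the matrix or the cytoskeleton. The P-cadherin gene Cdh3, for cell adhesion, was at 2.69 and 2.36 CPM in P-bodies against 30.8 and 31.8 CPM in cytoplasm (log2 fold change -3.65 ± 0.16, adjusted p = 1.6e-06). Ptk7, a receptor of the Wnt pathway, had 37.8 and 20.6 CPM in P-bodies against 371 and 346 CPM in cytoplasm (log2 fold change -3.64 ± 0.24, adjusted p = 5.01e-06). Its P-body replicates lay further apart than those of Cdh3. Sorcs2, a sorting receptor, was at 6.79 and 7.89 CPM in P-bodies and 85.7 and 88.7 CPM in cytoplasm (-3.59 ± 0.12). The membrane protein gene Lrrc15 was at 20.5 and 12.95 CPM in P-bodies and 202 and 179 CPM in cytoplasm (-3.53 ± 0.19). Igsf10, which codes for an immunoglobulin-superfamily protein, was at 4.66 and 6.34 CPM in P-bodies and 71.1 and 67.5 CPM in cytoplasm (-3.67 ± 0.15). The ephrin receptor Epha3 (-3.02 ± 0.11), the teneurin Tenm3 (-3.01 ± 0.12), the chloride transporter Clcn5 (-3.16 ± 0.16), the kinesin-related Kif26b (-3.32 ± 0.22) and the smooth muscle myosin heavy chain Myh11 (-2.95 ± 0.15) completed the list outside the matrix genes described next. Genes of this list were picked among those whose fractions do not overlap. That both P-body libraries lay below both cytoplasm libraries in each was therefore fixed by the choice.

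Matrix genes were depleted as groups. Of 40 collagen genes, 26 were depleted, 11 were not called and 3 were enriched, with a median of -1.25, against 28.7% depleted among all genes. The chains of collagen I, the main fibrillar collagen, are encoded by Col1a1 and Col1a2. Col1a1 was at 3408 and 4079.8 CPM in P-bodies against 12609 and 11327 CPM in cytoplasm (log2 fold change -1.69 ± 0.10, adjusted p = 3.65e-06). Col1a2 was at 4294 and 4385 CPM in P-bodies against 12461 and 11477 CPM in cytoplasm (log2 fold change -1.48 ± 0.07, adjusted p = 1.98e-06). For both chains every P-body value lay below every cytoplasm value. Collagen VI, which forms beaded filaments around cells, had log2 fold changes of -2.21 ± 0.10 for Col6a1, -2.197 ± 0.10 for Col6a2 and -2.41 ± 0.09 for Col6a3. Col5a3 was at 30.8 and 29.04 CPM in P-bodies and 267 and 243 CPM in cytoplasm (-3.11 ± 0.10). The 3 enriched collagens, named after their values were seen, had at most 3.21 CPM in any library: Col11a2 (log2 fold change 2.47 ± 0.502, adjusted p = 0.00246), Col23a1 (adjusted p = 0.0479) and Col9a3 (adjusted p = 0.0485). Col23a1 was not called in 5 of the alternatives tried and Col9a3 in 4 of them.

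Matrix glycoproteins and proteoglycans had the lowest median of the lists, -1.67, with 27 of 32 depleted. Fibronectin, which links the matrix to integrins, was at 2005 and 1813 CPM in P-bodies against 11170.0 and 10450.1 CPM in cytoplasm (log2 fold change -2.52 ± 0.08, adjusted p = 6.44e-07), and so 5.73-fold lower. Thrombospondin 1, a matricellular glycoprotein, was at 2925 and 2346 CPM in P-bodies against 11506 and 10937 CPM in cytoplasm (log2 fold change -2.11 ± 0.10, adjusted p = 2.26e-06). Tenascin C had 451 and 380.3 CPM in P-bodies against 3209 and 3058 CPM in cytoplasm (log2 fold change -2.93 ± 0.10, adjusted p = 6.44e-07). Thrombospondin 2 had 180.0 and 148 CPM in P-bodies and 1203 and 1170.0 CPM in cytoplasm (-2.87 ± 0.11). Fibrillin 2, a scaffold of microfibrils, was at 21.1 and 20.7 CPM in P-bodies and 182 and 189 CPM in cytoplasm (-3.17 ± 0.10), and its P-body replicates lay within 1 CPM of each other. Mfap4, also a microfibril protein, had 3.71 and 1.01 CPM in P-bodies and 20.1 and 15.8 CPM in cytoplasm (-2.95 ± 0.41). Its P-body replicates stood further apart than those of Fbn2. The only enriched members were Mfap5 and Efemp1. The microfibril gene Mfap5 was at 93.4 and 96.7 CPM in P-bodies and 51.1 and 49.02 CPM in cytoplasm (0.91 ± 0.09). The fibulin Efemp1 was at 235 and 225 CPM in P-bodies and 133 and 132 CPM in cytoplasm (0.78 ± 0.09). Efemp2, Ecm1 and Mfap2 were not called, with log2 fold changes of 0.03, 0.13 and 0.15.

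Among enzymes and inhibitors that crosslink and remodel matrix, 25 of 37 were depleted and the median was -0.88. Lysyl oxidase, which crosslinks collagen and elastin, was at 668 and 664 CPM in P-bodies and 2045 and 1948 CPM in cytoplasm (log2 fold change -1.602 ± 0.07, adjusted p = 1.98e-06). Its relative Loxl2 was at 152 and 133 CPM in P-bodies and 526 and 490.3 CPM in cytoplasm (-1.85 ± 0.10). The collagen chaperone Serpinh1 had 1269.9 and 1118 CPM in P-bodies and 3349 and 3285 CPM in cytoplasm (-1.49 ± 0.08). The lysyl hydroxylase Plod1 had 77.5 and 72.8 CPM in P-bodies and 236 and 235 CPM in cytoplasm (-1.67 ± 0.09), and the plasminogen activator Plat had 85.5 and 80.2 CPM in P-bodies and 297 and 276 CPM in cytoplasm (-1.81 ± 0.09). Among the inhibitors, both directions occurred. Timp1, an inhibitor of metalloproteinases, was enriched at 1306 and 1226 CPM in P-bodies against 521 and 546 CPM in cytoplasm (log2 fold change 1.23 ± 0.08, adjusted p = 4.76e-06). Timp2 had 1506 and 1485 CPM in P-bodies and 1598 and 1548 CPM in cytoplasm (log2 fold change -0.09 ± 0.07, adjusted p = 0.308). The enriched members also included Mmp23 (0.699 ± 0.09), Adamts10 (0.71 ± 0.12) and Adamts5 (0.25 ± 0.09), and Adamts5 lost its call in 5 alternatives.

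Receptors for the matrix and for growth factors followed the same direction. Of 31 laminins and integrins, 22 were depleted and 2 were enriched, with a median of -0.93. Laminin alpha 4 was at 16.9 and 10.7 CPM in P-bodies against 148 and 138 CPM in cytoplasm (log2 fold change -3.39 ± 0.19, adjusted p = 3.37e-06). Laminin gamma 1 was at 40.1 and 44.6 CPM in P-bodies and 211 and 201 CPM in cytoplasm (-2.299 ± 0.10). Integrin chains fell over a wide span, from -2.95 ± 0.12 for Itgb3 and -2.38 ± 0.10 for Itga11 to -0.84 ± 0.08 for the fibronectin receptor chain Itga5 and -0.73 ± 0.07 for the shared chain Itgb1. Itgb1 had 1698 and 1821 CPM in P-bodies and 2862 and 2887 CPM in cytoplasm. The enriched members Itga2b and Itga10 had at most 6.95 CPM in any library, and their calls did not hold without cytoplasm replicate 1 (adjusted p = 0.12 and 0.172). Of 26 growth factor receptors, 21 were depleted and the median was -1.21. The platelet-derived growth factor receptor Pdgfra, a marker of fibroblasts, was at 8.53 and 5.8001 CPM in P-bodies and 39.2 and 38.2 CPM in cytoplasm (log2 fold change -2.45 ± 0.17, adjusted p = 7e-06). The interleukin-6 family coreceptor Il6st was at 116 and 97.9 CPM in P-bodies and 502 and 472 CPM in cytoplasm (-2.202 ± 0.11). The transforming growth factor receptor Tgfbr2 was at 51.4 and 38.6 CPM in P-bodies and 203 and 191 CPM in cytoplasm (-2.15 ± 0.14). Lrp1, a large endocytic receptor, had 444 and 389 CPM in P-bodies and 1478 and 1382 CPM in cytoplasm (-1.798 ± 0.09). The receptor kinase Axl had 594 and 512 CPM in P-bodies and 874 and 828 CPM in cytoplasm (-0.64 ± 0.09). Bmpr2 alone was enriched (log2 fold change 0.54 ± 0.14, adjusted p = 0.008). It was not called without cytoplasm replicate 1 (adjusted p = 0.0972) or 2 (adjusted p = 0.0621) or with all 20 libraries in the fit (adjusted p = 0.0595).

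The endoplasmic reticulum machinery that these proteins pass through had members in both directions. Of 39 chaperone and translocon genes, 19 were enriched and 15 were depleted, against 26.6% and 28.7% of all genes. The signal recognition particle protein Srp9 had 325 and 279 CPM in P-bodies and 93.3 and 118 CPM in cytoplasm (log2 fold change 1.4998 ± 0.13, adjusted p = 1.43e-05). Its partner Srp14 had 354 and 322 CPM in P-bodies and 114 and 134 CPM in cytoplasm (1.43 ± 0.10). The translocon-associated Ssr4 had 329.8 and 293 CPM in P-bodies and 111 and 119 CPM in cytoplasm (1.42 ± 0.10). The chaperone Hspa5 (BiP) was depleted at 1466 and 1347 CPM in P-bodies and 2197 and 2087 CPM in cytoplasm (log2 fold change -0.62 ± 0.08, adjusted p = 0.000126). The disulfide isomerase P4hb was at 1608 and 1679.5 CPM in P-bodies and 2605 and 2489.6 CPM in cytoplasm (-0.65 ± 0.07), and the chaperone Hyou1 was at 23.4 and 20.2 CPM in P-bodies and 84.6 and 72.02 CPM in cytoplasm (-1.86 ± 0.13). Not called were Ssr1 (-0.18 ± 0.08), Dnajb11 (-0.16 ± 0.09), Ssr3 (-0.09 ± 0.08), Pdia6 (-0.07 ± 0.08) and Srp54a (-0.07 ± 0.14).

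The actin and contractile genes were divided too, with 16 of 33 enriched (48.5%) and 12 depleted (36.4%), against 26.6% and 28.7% of all genes. Nonmuscle myosin heavy chains, which drive contraction, and a filamin, which crosslinks actin, were depleted. Myh9 was at 169 and 173 CPM in P-bodies against 754 and 680.5 CPM in cytoplasm (log2 fold change -2.09 ± 0.09, adjusted p = 1.6e-06). Fold changes were -1.96 ± 0.09 for Myh10 and -1.896 ± 0.10 for the filamin Flnc. Smooth muscle actin Acta2, a mark of activated fibroblasts, was at 4025 and 4130.4 CPM in P-bodies and 3251 and 3195 CPM in cytoplasm (log2 fold change 0.32 ± 0.07, adjusted p = 0.00246). Its call was lost without cytoplasm replicate 2 (adjusted p = 0.0542). Beta-actin was at 5632 and 4466 CPM in P-bodies and 6718 and 6650.1 CPM in cytoplasm (log2 fold change -0.42 ± 0.10, adjusted p = 0.00618). It had adjusted p = 0.0842 without cytoplasm replicate 1 and 0.0646 without replicate 2. Glycolytic enzymes were depleted in 9 of 17 cases (52.9%) and enriched in 3 (17.6%). Among them were hexokinase 1 at 67.7 and 55.8 CPM in P-bodies and 200.2 and 186 CPM in cytoplasm (-1.66 ± 0.11) and the phosphofructokinases Pfkp (-1.51 ± 0.09) and Pfkl (-0.85 ± 0.10). Aldolase A (-0.01 ± 0.07), Gapdh (0.09 ± 0.09), Tpi1 (0.10 ± 0.07), Pgk1 (-0.13 ± 0.08) and Pgam1 (-0.16 ± 0.08) were not called.

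**Figure D2:**
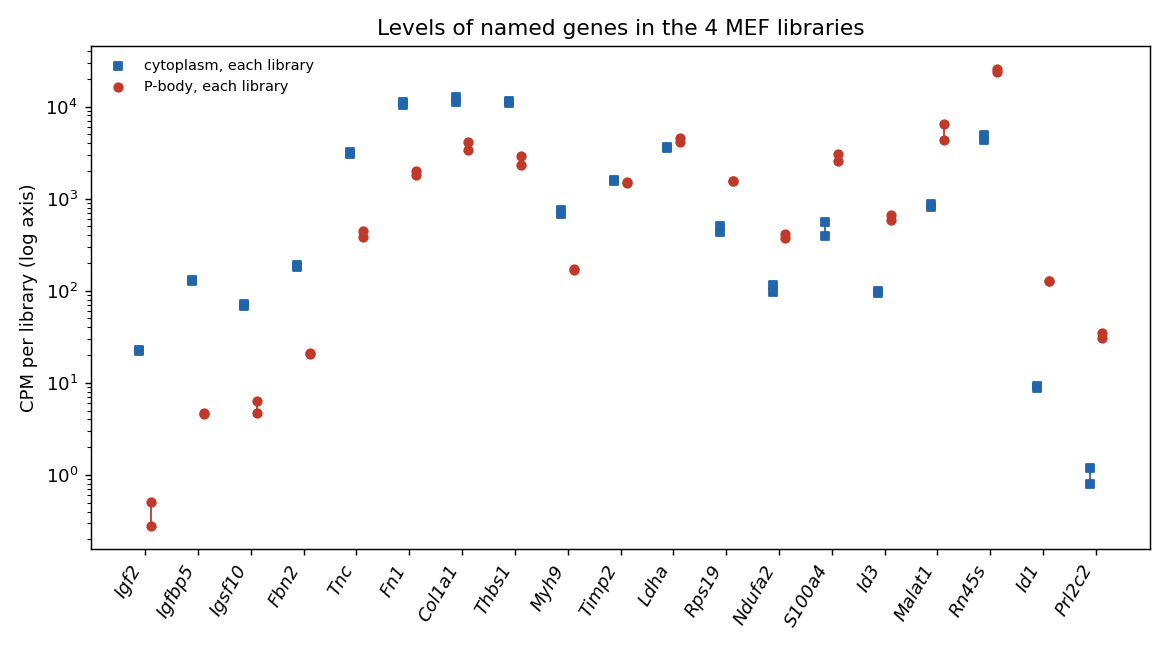
Points are the CPM (log axis) of named genes in each of the 4 MEF libraries, blue squares for cytoplasm and red circles for P-bodies, and a line joins the 2 libraries of a fraction. From Igf2 to Myh9 both P-body points lie below both cytoplasm points, from Rps19 to Prl2c2 above them, and for Timp2 the fractions lie close together.

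At the other end stood the ribosomal proteins. Of 82 cytosolic ribosomal protein genes, 81 were enriched and none was depleted, against 26.6% enriched among all genes. Their median was 1.37, and values ran from 0.37 to 1.76. Rps19, of the small subunit, was at 1572 and 1537 CPM in P-bodies against 435 and 505 CPM in cytoplasm (log2 fold change 1.71 ± 0.09, adjusted p = 2.67e-06). Rpl13, of the large subunit, was at 1740.0 and 1813 CPM in P-bodies against 581 and 677 CPM in cytoplasm (log2 fold change 1.48 ± 0.09, adjusted p = 3.99e-06). Rps2 was at 1633 and 1536 CPM in P-bodies and 709 and 732 CPM in cytoplasm (1.12 ± 0.08). Rpl36a (1.76 ± 0.15), Rps27a (1.74 ± 0.15) and Rpl10a (1.697 ± 0.09) had the highest values beside Rps19. The uncalled gene, Rpl32l, had at most 0.553 CPM in any library. Ribosomal protein genes have many processed pseudogenes, and how reads that match several genes were shared out was not stated.

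Mitochondrial genes of the nucleus were enriched to a like extent. Of 79 respiratory chain and ATP synthase subunits, 74 were enriched, with a median of 1.32. The complex I subunit Ndufa2 was at 412 and 376 CPM in P-bodies against 97.3 and 115 CPM in cytoplasm (log2 fold change 1.88 ± 0.11, adjusted p = 3.57e-06). The complex III subunit Uqcrq was at 551 and 524 CPM in P-bodies and 137 and 155 CPM in cytoplasm (1.86 ± 0.09). The ATP synthase subunit Atp5k was at 121 and 125 CPM in P-bodies and 28.96 and 36.1 CPM in cytoplasm (1.902 ± 0.12). The 5 exceptions were named after their values were seen. Sdha of complex II was depleted at 169 and 152 CPM in P-bodies and 288 and 276 CPM in cytoplasm (log2 fold change -0.83 ± 0.09, adjusted p = 6.66e-05). Ndufs1 of complex I was depleted at 102 and 102 CPM in P-bodies and 118 and 124 CPM in cytoplasm (log2 fold change -0.27 ± 0.09, adjusted p = 0.0276), and it lost its call under upper quartile scaling and without either cytoplasm library (adjusted p = 0.129 to 0.266). Atp5b, the catalytic subunit of ATP synthase, was at 1745 and 1596 CPM in P-bodies and 1518 and 1495 CPM in cytoplasm (0.13 ± 0.08) and was not called. Atp5a1 was at 579 and 569 CPM in P-bodies and 649.7 and 645 CPM in cytoplasm (-0.19 ± 0.08) and was not called, and neither was the little expressed Cox6a2. Of 78 mitochondrial ribosomal proteins, 70 were enriched, with a median of 1.15. Mrpl52 led at 118 and 124 CPM in P-bodies and 31.3 and 38.3 CPM in cytoplasm (1.78 ± 0.12), followed by Mrps6 at 222 and 234 CPM in P-bodies and 64.6 and 69.2 CPM in cytoplasm (1.75 ± 0.09). Mrps2 was the 1 depleted member (log2 fold change -0.57 ± 0.14, adjusted p = 0.00713), and was not called without cytoplasm replicate 1 (adjusted p = 0.113) or 2 (adjusted p = 0.0503).

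The proteasome, which degrades tagged proteins, was mostly enriched too. Of 47 genes, 37 were enriched, with a median of 0.86. The core particle subunits Psmb3 (617 and 525 CPM in P-bodies and 172 and 210.5 CPM in cytoplasm, 1.56 ± 0.12), Psmb1 (1.46 ± 0.10), Psma2 (1.44 ± 0.14) and Psma7 (1.43 ± 0.10) were among them. The 3 depleted genes were Psmd2 (333 and 323 CPM in P-bodies and 663 and 632 CPM in cytoplasm, -0.999 ± 0.08) and Psmd3 (-0.61 ± 0.09) of the regulatory particle and the activator Psme3 (-0.95 ± 0.09). Translation factors held 31 enriched (45.6%) and 18 depleted (26.5%) genes of 68. Eif3e was at 1322 and 988 CPM in P-bodies and 325 and 418 CPM in cytoplasm (1.62 ± 0.15). The elongation factor Eef1b2 was at 571 and 476 CPM in P-bodies and 166 and 188 CPM in cytoplasm (1.55 ± 0.11) and Eef1a1 at 2900.4 and 3292 CPM in P-bodies and 2208 and 2157 CPM in cytoplasm (0.49 ± 0.08). The scaffold of the cap-binding complex, Eif4g1, was at 161 and 147 CPM in P-bodies and 529 and 507 CPM in cytoplasm (log2 fold change -1.76 ± 0.09, adjusted p = 2.44e-06).

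Short messages for other abundant proteins were enriched in 20 of 21 cases, with a median of 1.24, and the other, the metallothionein Mt2, was not called (0.28 ± 0.21). The median transcript of this list was 1012 bases. Of all genes of at least 10 mean CPM in the shortest eighth by transcript length, 60 to 1600 bases, 87.4% were enriched. The calcium-binding S100a4, also called fibroblast-specific protein, was at 3074 and 2535 CPM in P-bodies against 391 and 564 CPM in cytoplasm (log2 fold change 2.54 ± 0.16, adjusted p = 5.01e-06), 5.81-fold higher in P-bodies. Its relatives S100a10 (1.81 ± 0.10) and S100a6 (1.69 ± 0.07) and superoxide dismutase Sod1 (1.59 ± 0.10) lay below it. Galectin Lgals1 was at 5557 and 5562 CPM in P-bodies and 1932 and 2135 CPM in cytoplasm (1.43 ± 0.07) and ferritin light chain Ftl1 at 6244 and 7006 CPM in P-bodies and 3589 and 3547 CPM in cytoplasm (0.88 ± 0.07).

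The Id genes, whose proteins block basic helix-loop-helix transcription factors, held 3 of the 15 highest fold changes above 10 CPM. Id1 (chr2:152736251-152737410, GRCm38) was at 127 and 128 CPM in P-bodies against 9.14 and 8.83 CPM in cytoplasm (log2 fold change 3.81 ± 0.11, adjusted p = 5.12e-07). It was 14.02-fold higher in P-bodies, and its replicates in each fraction lay close together. Id2 was at 43.5 and 45.2 CPM in P-bodies against 4.81 and 6.17 CPM in cytoplasm (log2 fold change 2.998 ± 0.15, adjusted p = 2.2e-06). Id3 was at 592 and 659 CPM in P-bodies against 99.3 and 93.6 CPM in cytoplasm (log2 fold change 2.68 ± 0.09, adjusted p = 7.66e-07). Proliferins, growth factors of the prolactin family that fibroblasts release when they divide, were higher still. Prl2c2 was at 34.9 and 30.9 CPM in P-bodies against 0.802 and 1.19 CPM in cytoplasm (log2 fold change 5.02 ± 0.20, adjusted p = 1.58e-06). Prl2c3 and Prl2c4 had the same values as each other to within 0.1 CPM (4.699 ± 0.24 for Prl2c3), and as near-identical copies they share reads that cannot be assigned with certainty. The other leading genes were Car8, which encodes a carbonic anhydrase-related protein, at 32.7 and 24.2 CPM in P-bodies and 3.98 and 5.18 CPM in cytoplasm (2.62 ± 0.20) and the peptide hormone gene Cck at 37.96 and 46.5 CPM in P-bodies and 6.09 and 7.73 CPM in cytoplasm (2.59 ± 0.16). G530011O06Rik was at 27.6 and 32.6 CPM in P-bodies and 1.83 and 3.78 CPM in cytoplasm (3.41 ± 0.27), and its exons overlap those of Mid1.

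The 2 highest fitted values of all belonged to lung genes and rested mainly on the second P-body library. Scgb1a1, a secretoglobin of airway club cells, had P-body levels of 3.59 and 43.6 CPM and cytoplasm levels of 0 and 0 CPM. Sftpc, surfactant protein C of the alveoli, had P-body levels of 1.94 and 42.4 CPM and cytoplasm levels of 0 and 0 CPM. With no cytoplasm read, the P-body level of Scgb1a1 over both libraries was at least 486-fold higher and that of Sftpc at least 457-fold higher, taking 3 reads over both cytoplasm libraries as the floor. Next after them, and named after their values were seen, came genes of neutrophils and macrophages: S100a9 had P-body levels of 0.83 and 8.12 CPM and cytoplasm levels of 0 and 0 CPM, and S100a8 had P-body levels of 0.751 and 6.07 CPM and cytoplasm levels of 0 and 0 CPM. The lysozyme gene Lyz2 had P-body levels of 3.04 and 25.1 CPM and cytoplasm levels of 0.577 and 0.498 CPM. In each of these the second P-body library stood far above the first. Sftpc was not called without cytoplasm replicate 1 (adjusted p = 0.0536).

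Of 37 immediate early and AP-1 genes, 13 were enriched and 12 depleted, and of 33 chemokines, cytokines and inflammatory genes 8 were enriched and 9 depleted. Over all genes 26.6% were enriched and 28.7% depleted, so the shares of the inflammatory list (24.2% and 27.3%) lay near those of all genes. The stress factor Cebpb was enriched at 42.6 and 62.99 CPM in P-bodies and 13.5 and 25.2 CPM in cytoplasm (log2 fold change 1.43 ± 0.27, adjusted p = 0.0015), and Cebpd at 80.5 and 83.6 CPM in P-bodies and 35.3 and 40.6 CPM in cytoplasm (1.09 ± 0.11). Cebpb had adjusted p = 0.053 with all 20 libraries in the fit. The transcription factor Egr1 was depleted at 23.9 and 24.3 CPM in P-bodies and 66.1 and 67.4 CPM in cytoplasm (-1.49 ± 0.10), and the AP-1 subunit Jun at 62.02 and 49.3 CPM in P-bodies and 149.7 and 141 CPM in cytoplasm (-1.41 ± 0.12). The matricellular growth factor Ccn2 was enriched at 2475 and 2534 CPM in P-bodies and 1476 and 1417 CPM in cytoplasm (0.77 ± 0.07). Osteopontin, Spp1, was depleted at 696 and 659 CPM in P-bodies and 2227 and 2234 CPM in cytoplasm (-1.74 ± 0.07), and the interleukin-33 receptor Il1rl1 at 34.1 and 40.6 CPM in P-bodies and 169 and 165 CPM in cytoplasm (-2.18 ± 0.11). The chemokine Cxcl14 was depleted at 9.12 and 8.62 CPM in P-bodies and 23.6 and 24.3 CPM in cytoplasm (-1.45 ± 0.13), while the chemokine Ccl2 was enriched at 62.4 and 53.4 CPM in P-bodies and 22.7 and 26.5 CPM in cytoplasm (1.22 ± 0.13).

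Several nuclear RNAs, and most host genes of small nucleolar RNAs, were more abundant in the P-body libraries. Malat1 (chr19:5795690-5802672, GRCm38), a noncoding RNA of nuclear speckles, was at 4376 and 6391 CPM in P-bodies against 821 and 882 CPM in cytoplasm (log2 fold change 2.64 ± 0.15, adjusted p = 3.74e-06). The 45S precursor of ribosomal RNA, Rn45s, was at 24018 and 25693 CPM in P-bodies against 4290.4 and 4948 CPM in cytoplasm (log2 fold change 2.41 ± 0.08, adjusted p = 6.44e-07). Rn45s was the most abundant gene of both P-body libraries. Kcnq1ot1, a noncoding RNA that acts at its own imprinted locus, was at 124 and 120.1 CPM in P-bodies against 19.3 and 27.3 CPM in cytoplasm (log2 fold change 2.38 ± 0.15, adjusted p = 4.76e-06). The maternally expressed Meg3 was at 125 and 153 CPM in P-bodies and 39.6 and 47.6 CPM in cytoplasm (1.66 ± 0.13). Of a list of 16 nuclear or imprinted RNAs, which also held the coding gene Gnas (not called), 9 were enriched and 4 were depleted. The 4 were H19, Peg13 (-1.402 ± 0.14), 2900097C17Rik (-1.33 ± 0.09) and Tug1 (-0.96 ± 0.09). The median of this list was 0.89, but that of its 11 genes of at least 10 CPM was 0.24. Host genes of small nucleolar RNAs, whose own transcripts are not counted here as nuclear RNAs, were enriched in 19 of 21 cases, with a median of 1.40. Gas5 was at 865 and 661 CPM in P-bodies and 263 and 337 CPM in cytoplasm (1.33 ± 0.15) and Snhg1 at 77.4 and 62.95 CPM in P-bodies and 20.4 and 25.6 CPM in cytoplasm (1.59 ± 0.15). Snhg5 was at 118 and 87.2 CPM in P-bodies and 27.3 and 34.9 CPM in cytoplasm (1.71 ± 0.17) and Snhg20 at 32.6 and 28.5 CPM in P-bodies and 4.297 and 5.91 CPM in cytoplasm (2.57 ± 0.18). By annotated class, 40 of 83 small nucleolar RNA genes were enriched (48.2%) and none was depleted (median 2.09). Their median length was 87 bases. Of all tested genes in the shortest eighth, 43 to 1317 bases, 53.7% were enriched and 3.66% depleted (median 1.09). The libraries were primed with oligo-dT, and the origin of reads at these loci was not tested. Of the long intergenic RNAs, 88 of 299 were enriched and 15 depleted (median 0.87). These compare with 3837 enriched and 4514 depleted of 14570 protein-coding genes (median -0.02). Nuclei were spun out before the sort, and the share of nuclear RNA in either fraction was not tested.

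Histone genes, whose messages mostly end without a poly(A) tail, were read in libraries primed with oligo-dT. Under the newer symbols 31 of 53 were enriched and none was depleted, with a median of 1.37, and under older symbols 6 of 9 were enriched and none depleted. H2bc4 was at 268 and 257 CPM in P-bodies and 94.8 and 100.4 CPM in cytoplasm (log2 fold change 1.41 ± 0.09, adjusted p = 4.57e-06). H2ac11 was at 52.2 and 58.1 CPM in P-bodies and 10.4 and 15.1 CPM in cytoplasm (2.09 ± 0.17). Hist1h2ao and Hist1h2ap had nearly the same values (204 and 214 CPM in P-bodies and 38.3 and 55.4 CPM in cytoplasm for the second) and are near-identical copies, so these members are not independent.

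**Figure D3:**
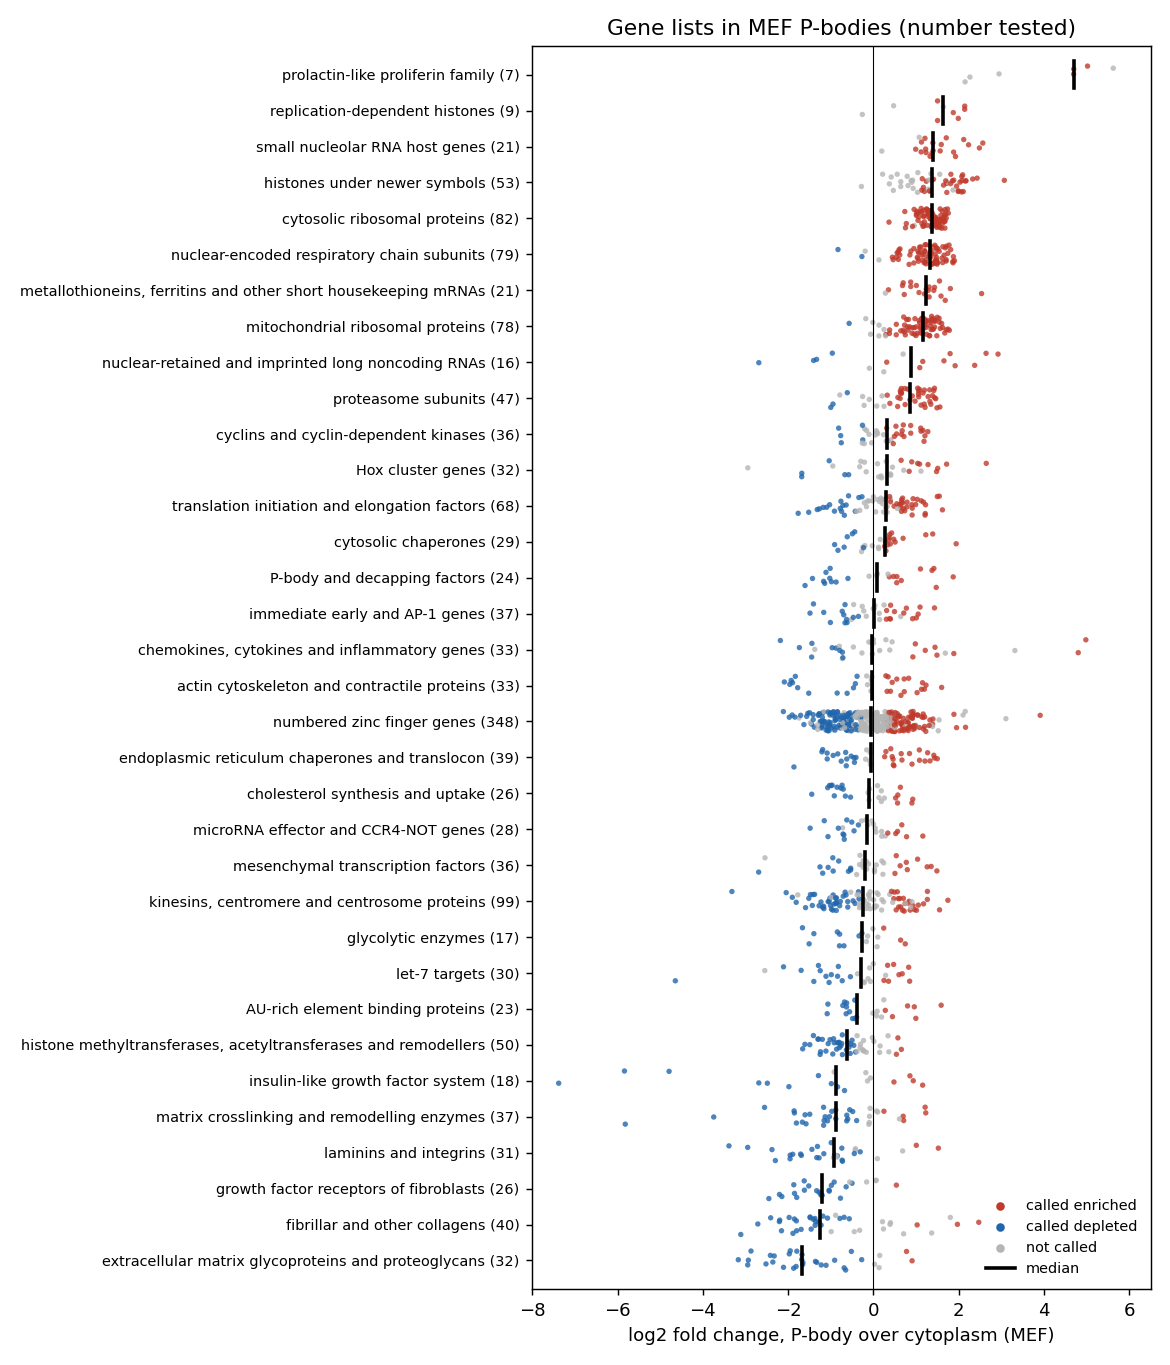
Each row is a gene list, with the number of its genes tested in parentheses, each point is a gene at its log2 fold change of P-body over cytoplasm in MEFs (spread vertically at random for display), and the black bar is the list's median. Matrix glycoproteins lie lowest with a median of -1.67, ribosomal proteins, respiratory chain subunits and small nucleolar RNA hosts lie between 1.32 and 1.40, and lists near 0 hold genes of both colours.

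Messages for the components of P-bodies themselves went both ways. Of 24 P-body and decapping factors, 10 were enriched and 10 depleted. The helicase Ddx6 was at 68.1 and 48.3 CPM in P-bodies against 128 and 121 CPM in cytoplasm (log2 fold change -1.11 ± 0.15, adjusted p = 0.000204). The decapping scaffold Edc4 was at 70.7 and 73.9 CPM in P-bodies and 153 and 137 CPM in cytoplasm (-1.02 ± 0.10) and the decapping activator Dcp1a at 15.2 and 15.1 CPM in P-bodies and 34.95 and 32.2 CPM in cytoplasm (-1.17 ± 0.12). Lsm14a was at 47.01 and 45.1 CPM in P-bodies and 101 and 100.1 CPM in cytoplasm (log2 fold change -1.14 ± 0.09, adjusted p = 1.21e-05). Since the cells also expressed a tagged LSM14A, its counts may include reads of the construct. The decapping enzyme Dcp2 was enriched at 32.2 and 37.97 CPM in P-bodies and 23.5 and 23.9 CPM in cytoplasm (log2 fold change 0.55 ± 0.12, adjusted p = 0.00388). The 5′ to 3′ exonuclease Xrn1 was depleted at 30.02 and 37.5 CPM in P-bodies and 53.5 and 47.3 CPM in cytoplasm (log2 fold change -0.596 ± 0.13, adjusted p = 0.00395). Neither was called without cytoplasm replicate 1 (adjusted p = 0.0644 and 0.103), nor was Dcp2 without replicate 2 (adjusted p = 0.0588). The small ring proteins that bind message ends were enriched, with Lsm7 at 119 and 106 CPM in P-bodies and 28.4 and 32.3 CPM in cytoplasm (1.87 ± 0.11). Lsm4 was at 146 and 155 CPM in P-bodies and 49.7 and 57.5 CPM in cytoplasm (1.47 ± 0.10) and Lsm6 at 122 and 109 CPM in P-bodies and 39.2 and 45.997 CPM in cytoplasm (1.42 ± 0.11). The nonsense-mediated decay helicase Upf1 was depleted at 46.5 and 47.8 CPM in P-bodies and 128 and 122 CPM in cytoplasm (-1.43 ± 0.09).

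Of 28 microRNA effector and deadenylation genes, 6 were enriched (21.4%) and 11 were depleted (39.3%), against 26.6% and 28.7% of all genes. Ago2, which carries the microRNA, was at 34.4 and 42.4 CPM in P-bodies against 78.8 and 80.01 CPM in cytoplasm (log2 fold change -1.06 ± 0.12, adjusted p = 6.18e-05). Cnot1, the scaffold of the CCR4-NOT deadenylase, was at 133 and 137 CPM in P-bodies and 373 and 372 CPM in cytoplasm (log2 fold change -1.48 ± 0.08, adjusted p = 3.57e-06). The helicase Mov10 was at 25.3 and 24.4 CPM in P-bodies and 57.8 and 51.4 CPM in cytoplasm (-1.15 ± 0.11). Pan3, of another deadenylase, was enriched at 29.3 and 19.1 CPM in P-bodies and 10.6 and 10.8 CPM in cytoplasm (1.16 ± 0.20). Among 23 proteins that bind AU-rich elements, 12 were depleted (52.2%), such as Khsrp (-1.08 ± 0.13), and 6 were enriched (26.1%). Ybx3 was enriched at 80.4 and 116 CPM in P-bodies and 23.1 and 41.3 CPM in cytoplasm (1.59 ± 0.25) and Tial1 at 48.1 and 44.5 CPM in P-bodies and 22.3 and 23.6 CPM in cytoplasm (0.996 ± 0.11). Nudt21, the polyadenylation factor that the study knocked down at day 3, was enriched at 116 and 98.5 CPM in P-bodies and 58.6 and 61.9 CPM in cytoplasm (log2 fold change 0.81 ± 0.11, adjusted p = 0.000184). The DNA demethylase gene Tet2 was depleted at 27.6 and 29.2 CPM in P-bodies and 46.5 and 48.7 CPM in cytoplasm (-0.76 ± 0.10). The DNA polymerase gene Polk was at 151 and 182 CPM in P-bodies and 194 and 190.2 CPM in cytoplasm (log2 fold change -0.22 ± 0.10, adjusted p = 0.098).

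Regulators of chromatin were mostly depleted, with 32 of 50 depleted, 3 enriched and a median of -0.61. Arid1b was at 18.4 and 23.5 CPM in P-bodies and 67.8 and 62.96 CPM in cytoplasm (log2 fold change -1.66 ± 0.13, adjusted p = 1.15e-05) and the histone demethylase Kdm5c at 39.9 and 27.2 CPM in P-bodies and 111 and 90.8 CPM in cytoplasm (-1.61 ± 0.18). The remodelling ATPase Smarca4 was at 122 and 134 CPM in P-bodies and 275 and 272 CPM in cytoplasm (-1.11 ± 0.09). The 3 enriched genes were Setd1a (0.66 ± 0.18), Bptf (0.58 ± 0.12) and Kdm6b (0.54 ± 0.19). All of these lost their call without either cytoplasm library (adjusted p = 0.0506 to 0.254). Numbered zinc finger genes, most of them transcriptional repressors, were near balance, with 87 of 348 enriched and 96 depleted (27.6%), shares close to those among all genes. Zfp120 was enriched at 451 and 460.4 CPM in P-bodies and 162 and 197 CPM in cytoplasm (1.33 ± 0.10). Zfp646 (-1.97 ± 0.13), Zfp146 (-1.91 ± 0.14) and Zfp521 (-1.84 ± 0.13) were depleted. The abundant Zfp260 was at 400.2 and 476 CPM in P-bodies and 434 and 447 CPM in cytoplasm (-0.03 ± 0.10).

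Transcription factors of mesenchyme held 9 enriched (25%) and 10 depleted (27.8%) genes of 36, near the 26.6% and 28.7% of all genes. Prrx2, a homeobox factor of limb and connective tissue mesenchyme, was enriched at 201 and 236 CPM in P-bodies and 83.9 and 84.9 CPM in cytoplasm (log2 fold change 1.36 ± 0.10, adjusted p = 8.89e-06). Tead1, the partner of YAP, was enriched at 66.4 and 79.04 CPM in P-bodies and 27.2 and 32.8 CPM in cytoplasm (1.26 ± 0.13). Runx1 was depleted at 31.1 and 33.3 CPM in P-bodies and 74.9 and 76.5 CPM in cytoplasm (-1.25 ± 0.10) and Zeb2 at 47.2 and 41.3 CPM in P-bodies and 101 and 98.5 CPM in cytoplasm (-1.19 ± 0.10). Tcf4 (0.03 ± 0.13) and Wwtr1 (-0.11 ± 0.08) were not called. Of 32 Hox genes, 10 were enriched (31.25%) and 5 were depleted (15.6%), against 26.6% and 28.7% of all genes. The median of the list was 0.32, but that of its 7 genes of at least 10 CPM was -0.21. Among these 7, Hoxa5 was enriched at 22.8 and 29.97 CPM in P-bodies and 12.3 and 12.2 CPM in cytoplasm (1.08 ± 0.16). Among cell-cycle genes, 18 of 36 cyclins and cyclin-dependent kinases and their inhibitors were enriched (50%) and 5 depleted (13.9%). Above 10 CPM, Ccnl1 (1.19 ± 0.09), Ccnl2 (1.21 ± 0.11), Cdk5 (1.28 ± 0.11) and Cdk8 (1.12 ± 0.13) led. Of 99 kinesins, centromere and centrosome proteins, 40 were depleted (40.4%), against 28.7% of all genes. The 25 enriched (25.3%) were a share near the 26.6% of all genes. Adjusted for transcript length as described below, the median of this list was 0.01.

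Fold change varied with the length of the transcript. Of the 16198 genes, 15975 matched a GENCODE M21 gene, and length was that of the gene's longest transcript. Among 9354 such genes of at least 10 mean CPM, Spearman's rank correlation of fold change with length was -0.551 and Pearson's -0.359, across genes that share 4 libraries and are not independent replicates. In the shortest eighth, 60 to 1600 bases, the median log2 fold change was 0.99 and 87.4% were enriched. In the longest eighth, 6481 bases or more, the median was -0.62 and 63.0% were depleted. Over every gene tested the rank correlation was -0.451, and with the median length of a gene's transcripts in place of the longest it was -0.335.

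The rank correlation was larger for the coding part than for the 3′ UTR. Across eighths of coding length the median fell from 0.84 to -0.91 without a reversal. Across eighths of 3′ UTR length it went from 0.58 in the shortest to -0.41 in the sixth and then stayed between -0.41 and -0.34. The rank correlations were -0.575 for 7613 coding lengths and -0.27 for 7577 3′ UTRs. In the top tertile of coding length, medians for short, middle and long 3′ UTRs were -0.66, -0.78 and -0.65, and in the lowest tertile they were 0.91, 0.29 and 0.05. Rank correlations with GC content were -0.086 for the transcript, -0.054 for the coding part and -0.11 for the 3′ UTR, and the relation was not monotonic. Across eighths of transcript GC content the median fell from 0.22 in the lowest, where 45.3% of genes were enriched, to -0.25 in the fifth, and rose again to -0.03 in the highest.

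**Figure D4:**
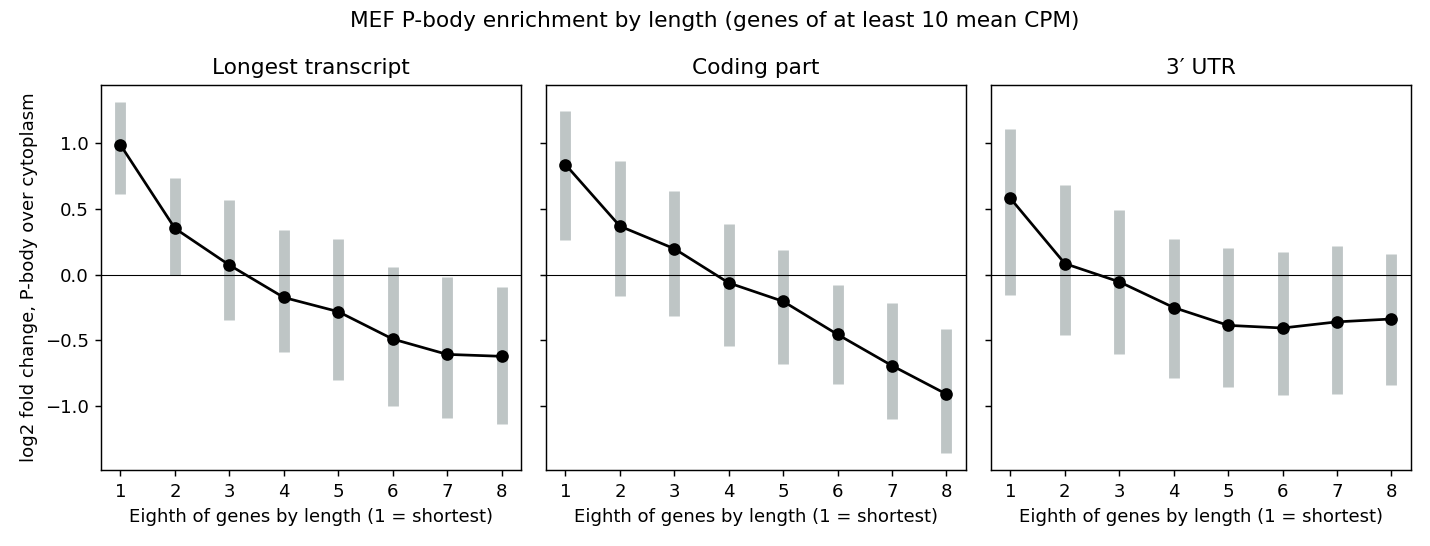
The panels show genes of at least 10 mean CPM in eighths by the length of the longest transcript, of its coding part and of its 3′ UTR (1 is the shortest eighth); dots are median log2 fold changes of P-body over cytoplasm and grey bars span the interquartile range. The median falls through the whole range of coding length, from 0.84 to -0.91, and levels off in the longer 3′ UTRs.

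The lists kept different medians when transcripts of like length were compared. When the median of the genes in the same twentieth of transcript length was subtracted from each gene, a comparison chosen after the relation was seen, the median of matrix glycoproteins was -1.18, of collagens -0.80, of growth factor receptors -0.68 and of glycolytic enzymes -0.55. Cytosolic ribosomal proteins then had a median of 0.35, mitochondrial ribosomal proteins 0.45, respiratory chain subunits 0.23 and the short messages for other abundant proteins 0.46. The list of nuclear and imprinted RNAs, with a median transcript of 5235 bases, had 1.14, and small nucleolar RNA hosts 0.85. Chromatin regulators, with a median transcript of 8508 bases, went to -0.14.

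The let-7 family, miR-300 and miR-381 were the microRNAs of interest to the study. A microRNA pairs with messages mainly through its seed, bases 2 to 8, shown here in capitals in mature sequences from RefSeq (GRCm38.p6), written 5′ to 3′ to show which letters the families share.
let-7a-5p: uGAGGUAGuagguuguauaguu
let-7d-5p: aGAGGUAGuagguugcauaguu
let-7g-5p: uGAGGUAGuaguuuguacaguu
miR-300-3p: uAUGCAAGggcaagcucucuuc
miR-381-3p: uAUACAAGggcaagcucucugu
All 8 let-7 5p names in the table shared the seed of let-7a-5p. The seeds of miR-300-3p and miR-381-3p differ from each other within the capitals. Genes are described below by whether the 3′ UTR of their longest transcript held the complement of bases 2 to 8, that is CTACCTC for let-7, CTTGCAT for miR-300-3p and CTTGTAT for miR-381-3p, on the transcript's strand.

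Genes with and without a let-7 site had medians within 0.08 of each other when 3′ UTRs of like length were compared. Of 7577 genes of at least 10 mean CPM with a 3′ UTR, 894 (11.8%) held a let-7 site, and their median was -0.29 against -0.15 for the 6683 without one. Within quartiles of 3′ UTR length, from the shortest to the longest, the medians with and without a site were 0.24 and 0.31, -0.16 and -0.16, -0.41 and -0.39, and -0.34 and -0.35. For miR-300-3p, 899 genes (11.9%) held a site and the differences of medians within the quartiles, with minus without, were 0.07, 0.11, -0.04 and 0.02. For miR-381-3p, 1152 genes (15.2%) held a site and the differences were -0.42, 0.02, -0.04 and 0.04, the first of them over 57 genes with a site. The AU-rich heptamer TATTTAT was in 34.0% of these 3′ UTRs, with differences of -0.28, -0.01, -0.03 and 0.07.

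Of 30 established let-7 target genes, 8 were enriched (26.7%) and 13 were depleted (43.3%), against 26.6% and 28.7% of all genes, with a median of -0.30. Of the 30, 17 held a let-7 site in the 3′ UTR used here, 5 of them enriched and 6 depleted. The 30-base stretches below, from GENCODE M21 transcripts, show the first site, in capitals, of 3 genes of the list with at least 10 mean CPM and at least 2 sites.
Igf2bp1: gtgcgaagtaaaCTACCTCaaggtgtgaag
Hmga2: gacattcaatttCTACCTCagcatcagttg
Igf1r: tcaaacatttatCTACCTCactcttgtttt
They lie in 3′ UTR exons at chr11:95961768-95961797 (minus strand), chr10:120364214-120364243 (minus strand) and chr7:68229113-68229142 (plus strand) of GRCm38. Nr6a1, with 8 sites, was at 11.97 and 12.5 CPM in P-bodies and 13.9 and 17.4 CPM in cytoplasm (log2 fold change -0.37 ± 0.16, adjusted p = 0.0707). Igf2bp1, an RNA-binding protein with 4 sites, was depleted at 76.9 and 85.1 CPM in P-bodies against 191 and 199.6 CPM in cytoplasm (log2 fold change -1.29 ± 0.09, adjusted p = 7.62e-06). Hmga2, a chromatin protein with 4 sites, was at 132 and 163 CPM in P-bodies against 118 and 121 CPM in cytoplasm (log2 fold change 0.29 ± 0.11, adjusted p = 0.0521). Igf1r, the receptor of insulin-like growth factors with 2 sites, was depleted at 41.3 and 45.7 CPM in P-bodies and 81.1 and 72.6 CPM in cytoplasm (-0.84 ± 0.11). Of the other targets, Arid3a (-1.397 ± 0.12) and Plagl2 (-1.25 ± 0.13) were depleted. The cyclin Ccnd2 was enriched at 1213 and 1458 CPM in P-bodies and 1033 and 1059 CPM in cytoplasm (log2 fold change 0.33 ± 0.09, adjusted p = 0.0141). That call was lost without cytoplasm replicate 1 (adjusted p = 0.136) or 2 (adjusted p = 0.11) and with all 20 libraries in the fit (adjusted p = 0.222).

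The fibroblast pattern was then set against the other cell types, each by a test of the difference of the fold changes (an interaction term over 8 libraries). The 3 comparisons share the MEF libraries. Libraries of the ES cells were smaller, with 6769727 to 12772173 reads on genes, and those of day 3 held 19384697 to 26740715. Transcript length was adjusted for in MEFs only, so differences between cell types are not adjusted for it. The lists differ in length, with median transcripts of 1048 bases for cytosolic ribosomal proteins and 8508 for chromatin regulators. Against naive ES cells, 3598 of 18143 genes (19.8%) had a higher fold change in MEFs and 3895 (21.5%) a lower one. Against primed ES cells, 3370 of 18216 (18.5%) were higher and 4210 (23.1%) lower. Against day 3 of reprogramming, 898 of 17488 (5.13%) were higher and 1677 (9.59%) lower, but the day 3 libraries' own test called only 102 of 15786 genes (0.646%). Without any one of the 8 libraries the count of 2575 moved to between 259 and 5546. Within the ES cells, 38% of 15630 genes tested were called in naive and 50.7% of 16177 in primed cells. Scaling by library totals made the day 3 split 1143 higher and 1294 lower, and scaling by upper quartiles 1234 and 1297. Upper quartile scaling also turned the balance against naive cells, with 4210 higher and 3380 lower, and against primed cells, with 4040 higher and 3469 lower.

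The ribosomal proteins differed between the cell types. Their median log2 fold change was 1.37 in MEFs, 0.64 at day 3, -0.17 in primed and -0.44 in naive ES cells. In MEFs 81 were enriched, in naive ES cells none was and 44 of 84 were depleted, and in primed ES cells 6 of 83 were enriched and 40 depleted. Among all genes, 22.6% were enriched and 15.4% depleted in naive cells, and 26.5% and 24.2% in primed cells. Of 84 tested, 81 had a higher fold change in MEFs than in naive and 80 than in primed ES cells, against 19.8% and 18.5% of all genes, and 25 of 83 were higher than at day 3, against 5.13%. Rpl13 had a fold change higher in MEFs by 2.22 ± 0.17 on the log2 scale (adjusted p = 1.62e-05). Naive cells had it at 700.3 and 752 CPM in P-bodies and 1345 and 1127 CPM in cytoplasm. The difference was 1.604 ± 0.12 for Rps2 (adjusted p = 1.4e-05).

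Respiratory chain and mitochondrial ribosomal genes went the same way. Of 80 respiratory chain genes, 76 were higher in MEFs than in naive ES cells and none was lower, and of 78 mitochondrial ribosomal proteins 65 were higher and 1 was lower. Over all genes 19.8% were higher. The median of the respiratory chain genes was 1.32 in MEFs, 0.53 at day 3, -0.06 in primed and -0.51 in naive cells. Atp5b differed from naive cells by 0.72 ± 0.12 (adjusted p = 0.000869), a call lost without either MEF cytoplasm library, and for Atp5a1 the difference was 0.04 ± 0.12 (adjusted p = 0.877).

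Zinc finger genes and chromatin regulators lay on the other side. Numbered zinc finger genes were enriched in 236 of 351 cases in naive ES cells, with a median of 1.64, and in 239 of 355 cases in primed ES cells, with a median of 0.96, against 87 of 348 in MEFs. In the test of the difference, 222 of 356 were lower in MEFs than in naive cells and 227 of 358 lower than in primed cells, with 30 and 20 higher. Chromatin regulators were lower in MEFs in 36 of 50 cases against naive and in 34 of 50 against primed cells. Over all genes 21.5% were lower against naive and 23.1% against primed cells. Ncor1, just outside the call in MEFs (log2 fold change 0.36 ± 0.14, adjusted p = 0.0507) and called enriched there under 7 of 8 alternatives that left out no library (adjusted p = 0.0129 to 0.0471), was 1.42 in naive cells and differed by -0.86 ± 0.25 (adjusted p = 0.019). The call was lost under upper quartile scaling and without either naive P-body library (adjusted p = 0.0532 to 0.0769). The let-7 targets had medians of -0.30 in MEFs, -0.22 at day 3, 0.10 in primed and 0.65 in naive cells. Of 31 tested, 17 were lower in MEFs than in naive cells and 17 lower than in primed cells, against 21.5% and 23.1% of all genes.

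Collagens and matrix glycoproteins had medians below 0 in every cell type, but outside MEFs many members were not called. Of the collagens, 4 of 40 were depleted at day 3, 17 of 38 in primed and 7 of 29 in naive cells. For matrix glycoproteins these counts were 2 of 32, 19 of 30 and 8 of 26. Enriched were 0, 4 and 0 collagens and 0, 3 and 2 glycoproteins. Over all genes 0.45%, 24.2% and 15.4% were depleted. The collagens had medians of -1.25 in MEFs, -0.61 at day 3, -0.61 in primed and -0.83 in naive cells. Of these, 16 of 43 were lower in MEFs than at day 3, against 9.59% of all genes. Against naive cells 6 of 44 were lower, a share under the 21.5% of all genes. Against primed cells 14 of 44 were lower and 6 higher, beside 23.1% and 18.5% of all genes. Matrix glycoproteins had -1.67, -0.61, -0.89 and -0.50 in the same order. Of them, 18 of 32 were lower in MEFs than at day 3, 14 of 32 than in primed and 11 of 32 than in naive cells. Higher in MEFs were 2, 2 and 4 in that order. Over all genes 9.59%, 23.1% and 21.5% were lower. Fibronectin, which naive cells had at 1608 and 1527 CPM in P-bodies and 4236 and 4213 CPM in cytoplasm, was -1.21 there and differed by -1.12 ± 0.13 (adjusted p = 8.48e-05). Col1a1 and Col1a2 had at most 1.38 CPM in naive cells, so their differences (adjusted p = 0.844 and 0.126) could not be read at this depth.

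**Figure D5:**
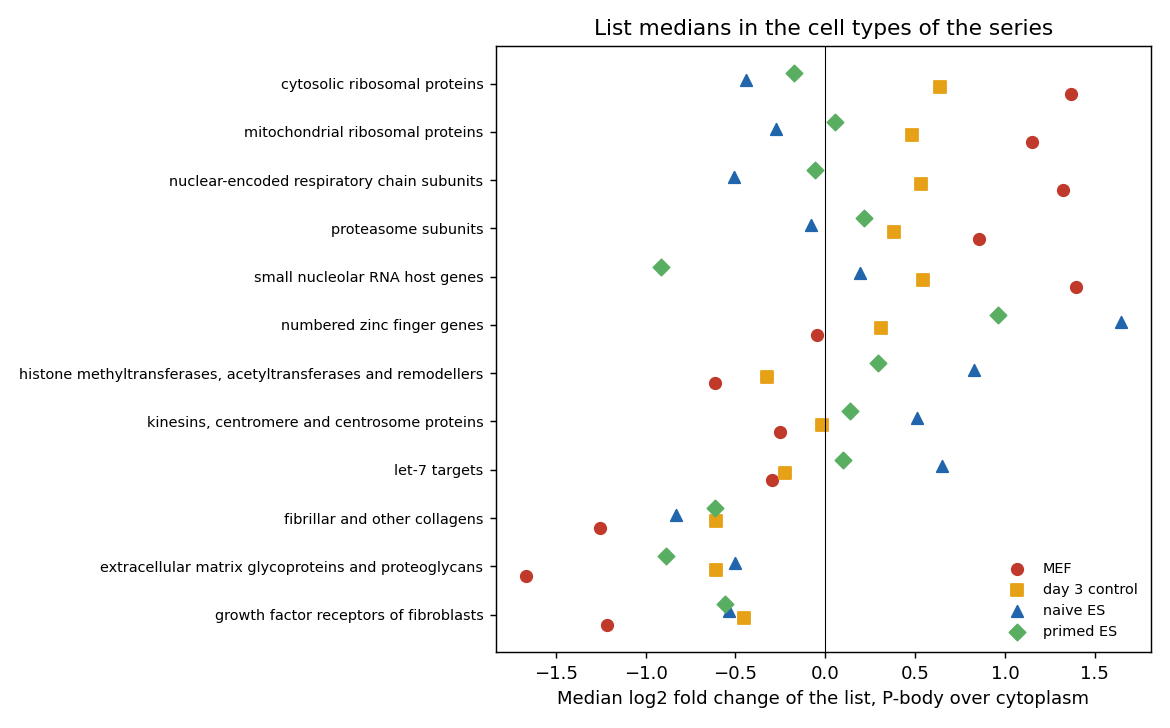
Points are the median log2 fold change of P-body over cytoplasm of each list in MEFs, day 3 control, naive ES and primed ES cells, from the test within each cell type. For ribosomal proteins MEFs stand at 1.37 and naive cells at -0.44, for zinc finger genes MEFs stand at -0.05 and naive cells at 1.64, and matrix lists lie below 0 in all cell types.

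Single genes that differed most were chosen by size among genes with at least 10 reads in all 8 libraries. Against naive ES cells, Id3 was higher in MEFs (3.69 ± 0.53, adjusted p = 0.000381), and naive cells had it at 10.96 and 9.23 CPM in P-bodies and 10.02 and 31.9 CPM in cytoplasm, where it was not called. The mesenchymal factor Prrx2 was higher too (3.66 ± 0.24, adjusted p = 8.26e-06). Naive cells had Prrx2 at only 1.49 and 1.19 CPM in P-bodies and 6.34 and 7.13 CPM in cytoplasm. Gja1, the gap junction protein connexin 43, was lower in MEFs (-5.26 ± 0.27, adjusted p = 6.6e-06). MEFs had it at 70.1 and 61.4 CPM in P-bodies and 215 and 218 CPM in cytoplasm. Naive cells had it at 37.3 and 39.8 CPM in P-bodies and 2.35 and 4.54 CPM in cytoplasm, with the higher values in the other fraction. The nuclear receptor Rora differed by -5.06 ± 0.45, the RNA-binding protein Elavl2 by -5.23 ± 0.44, and the adhesion protein Flrt3 by -5.05 ± 0.27. Elavl2 had at most 1.35 CPM in any MEF library.

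Against primed ES cells, Igfbp5 had the largest difference (-6.44 ± 0.19, adjusted p = 6.86e-10). It was at 16.2 and 14.6 CPM in P-bodies and 5.47 and 4.36 CPM in cytoplasm in primed cells, the reverse order of MEFs. The protocadherin Pcdh18 differed by -5.14 ± 0.23, the neurotrophic factor receptor Gfra1 by -4.92 ± 0.32, the homeobox factor Meis1 by -4.22 ± 0.20 and the retinoic acid receptor Rarb by -3.99 ± 0.38. The secreted Spon1 (4.67 ± 0.27) and the endocytic receptor Cubn (4.47 ± 0.37) were higher in MEFs. Primed cells had Cubn at 1.67 and 2.71 CPM in P-bodies and 56.7 and 42.02 CPM in cytoplasm, and MEFs at 2.92 and 3.33 CPM in P-bodies and 2.63 and 3.68 CPM in cytoplasm.

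Against day 3 of reprogramming, Lama4 was lower in MEFs (-3.15 ± 0.25, adjusted p = 0.000214). Its level at day 3 was 424 and 367 CPM in P-bodies and 488 and 482 CPM in cytoplasm. Cdh3 (-3.601 ± 0.38) and Lrrc15 (-3.32 ± 0.52) were lower in MEFs too, at no more than 2.12 CPM in any day 3 library. The transcription factor Cebpb was higher in MEFs (3.23 ± 0.47, adjusted p = 0.00255), and day 3 cells had it at 12.4 and 7.17 CPM in P-bodies and 28.9 and 42.2 CPM in cytoplasm.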

How the data were processed

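RNA of sorted P-bodies and of the presorting cytoplasmic fraction was read with an oligo-dT primed kit and paired-end sequencing. The authors aligned reads with HISAT2 to mm10 and counted RefSeq exons with featureCounts, and the deposited values are estimated counts per gene that include fractions of reads, with no normalization.

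From these, counts were rounded and a gene entered a comparison if its libraries together held 10 reads or more. Fractions were compared with edgeR 4.0.16 (R 4.3.3), TMM scaling, the quasi-likelihood F test and Benjamini-Hochberg adjustment at 0.05, with 2 libraries per group. Differences between cell types were tested as an interaction over 8 libraries. Counts of the 16198 genes of the MEF comparison were also simulated, with the same spread assumed for every gene and for both fractions. The genes given a change were drawn only from those above a minimum level. Of these, 83% of genes changed by 1 on the log2 scale and 100% of those changed by 2 were recovered. Recovery of genes with few reads, or under the unequal spread of the real fractions, was not simulated. Levels are CPM of the library total. DESeq2 1.42.0, other scalings, filters and left-out libraries served as alternatives.

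Genes and gene lists were chosen with earlier results of these data known. The text names the 15 most changed genes in each direction of at least 10 mean CPM whose fractions do not overlap, in each list the 4 called members with the largest change and the 2 most abundant, 10 P-body and study genes, and for each difference between cell types the 5 largest in each direction. Other names are members that went against their list, chosen after their values were seen. Lengths and 3′ UTRs came from GENCODE M21 (GRCm38), which 98.62% of tested genes matched. Strand was not stated, so reads of overlapping antisense genes cannot be told apart. A few genes and 1 sequence that these rules select are not reported here.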

Additional observations from a re-analysis of the deposited data

Results flagged for a closer look

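The results here were picked out because the fold change of P-body over cytoplasm differed between MEFs and another cell type in a test of the difference itself, edgeR's interaction term with Benjamini-Hochberg adjustment. The counts of such genes were 2575 against day 3, 7493 against naive ES cells and 7580 against primed ES cells, and all these comparisons share the MEF libraries. Values are the MEF log2 fold change minus that of the other cell type.

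Against day 3, the genes higher in MEFs were Erdr1 (4.26), Phxr4 (3.59), Wnt4 (3.53), G530011O06Rik (3.35) and Cebpb (3.23), and those lower were Dhrs9 (-3.99), Cdh3 (-3.6), Aldh1l1 (-3.39), Lrrc15 (-3.32) and Lama4 (-3.15). Some of these had low levels. Phxr4 reached at most 3.16 and Dhrs9 1.34 CPM at day 3, and Wnt4 at most 1.66 CPM in MEFs. Wnt4 lost its call in 4 of the fits that left out a library (adjusted p = 0.0598 to 0.116).

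Against naive ES cells, the genes higher in MEFs were Nkain4 (4.16), Rhpn1 (3.93), Id3 (3.69), Prrx2 (3.66) and 2200002D01Rik (3.63), and those lower were Gja1 (-5.26), Elavl2 (-5.23), Igsf10 (-5.19), Rora (-5.06) and Flrt3 (-5.05). Levels were low for some of them. Nkain4 reached at most 4.27, Rhpn1 3.36 and Elavl2 1.35 CPM in MEFs, and Igsf10 at most 4.14 CPM in naive cells. Among the most abundant members of the gene lists, Rpl13 (2.22), Rps2 (1.6) and Atp5b (0.723) were higher in MEFs, and Fn1 (-1.12), Ncor1 (-0.864) and Ccnd2 (-2.19) were lower. The difference of Ccnd2 was not called by DESeq2 (adjusted p = 0.0916) or without naive P-body replicate 2 (adjusted p = 0.0663).

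Against primed ES cells, the genes higher in MEFs were G530011O06Rik (4.8), Snora68 (4.76), Spon1 (4.67), Cubn (4.47) and Neb (4.12), and those lower were Igfbp5 (-6.44), Pcdh18 (-5.14), Gfra1 (-4.92), Meis1 (-4.22) and Rarb (-3.99). Neb reached at most 3.67 CPM in MEFs and Snora68 at most 3.84 CPM in primed cells.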

How the results depend on the processing

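No reported result changed its direction while called under any alternative run. The count of genes that differed between MEF P-bodies and cytoplasm, 8955, ran from 5595 to 9976 when a library was left out, and it was lowest without cytoplasm replicate 1. The count that differed between MEFs and day 3 ran from 259 to 5546, and each of the 8 libraries moved it by more than 1.5 times when left out. Of 234 named genes called in MEFs, 32 lost their call in at least 1 alternative, 15 of them in one that left out no library, and of 36 named differences between cell types 4 did. Of the list counts, 16 moved by more than 1.5 times with a library left out and 120 did not. Of the list medians, 83 moved by more than the SD between the P-body libraries under alternatives that left out no library and 223 did not, and with a library left out 41 moved and 95 did not. Medians near 0 crossed it under upper quartile scaling for the actin (0.07), endoplasmic reticulum (0.03), inflammatory (0.08) and zinc finger lists (0.05), and with all 20 libraries for the immediate early list (-0.01). Under the adjustment for length the sign turned for 8 lists, to below 0 for translation factors (-0.01), P-body factors (-0.15) and immediate early genes (-0.27), and to above 0 for microRNA effectors (0.04), AU-rich element binding proteins (0.01), mesenchymal transcription factors (0.09), zinc finger genes (0.15) and kinesin and centromere genes (0.01). Replicate numbers shared only a number: the deviations of same-numbered libraries had a correlation of -0.0054, and with the replicate block 9019 genes were called, 4279 enriched and 4740 depleted. Medians adjusted for length, histones under newer symbols and the list counts without P-body replicate 2 were added after seeing the data. The planned comparison of hydrophobic N-termini was not run, as protein sequences were not used here. With 2 libraries per fraction, the precision rests on few libraries, and leaving one out leaves a lone library that is assumed to vary like the others. The cause of these changes was not tested.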
